A study of Mus musculus with 7 samples.

Results

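The 35 genes described here carry out or start DNA replication at the G1/S boundary of the cell cycle. They were chosen by gene symbol, and all 35 were found once each among the 20142 symbols listed once in the deposited table. All 35 reached at least 1 FPKM (a count of RNA fragments scaled for transcript length and for the total mapped) in at least 3 libraries, the minimum that 9259 genes met. RNA was sequenced from EML cells, a mouse multipotent haematopoietic line made by giving bone marrow cells a dominant-negative retinoic acid receptor, which forms erythroid, myeloid and lymphoid cells. Annexin V-negative, and so non-apoptotic, cells were sorted by the surface sialomucin CD34 into 4 CD34-negative and 3 CD34-positive libraries, with the strain of all 7 labelled C57BL/6 and no treatment or time labelled. Groups follow the titles, because the genotype entry for CD34-negative libraries has CD43. Tissue is entered as bone marrow and age as a postnatal day, although the source is the cell line. All libraries come from 1 line, and the labels do not say that replicates were separate cultures, so a p-value reflects library-to-library spread alone, and that spread may be technical.

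In G1, the loaders Cdc6 and Cdt1 place the MCM2-7 helicase on origins. Cyclin E with its kinase, and the binding of Cdc45 and the GINS complex, then turn the loaded helicase on. E2F transcription factors, released from the retinoblastoma protein late in G1, drive many of the genes for helicase, polymerases and nucleotide supply, so the family is commonly read as a sign of cells entering S phase. Blood progenitors enter S phase often, and erythroid precursors divide rapidly before they mature.

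Promoter sequences are shown because E2F factors are both members of the list and known regulators of many of its genes. The words TTTCGCGC, TTTGGCGC, TTTCCCGC and TTTGCCGC, which are forms of the E2F binding motif, were searched on both strands, overlaps allowed, in RefSeq windows (GRCm38.p6) from 250 bases before to 50 bases after each listed start. Windows existed for 30 members, all but Mcm4, Ccne2, Gins1, Gins2 and Pole. Of these 30, 12 held a word in at least 1 window, against 5.18% of 7130 tested genes with a window and 2.60% of all 27025 genes with one. CCAAT, the core of the NF-Y motif, was in 19 of the 30 (63.3%) and in 43.5% of the tested genes. The helicase genes Mcm5 and Mcm6 are shown with the 250 bases before the start, 5′ to 3′ on the gene's strand, with E2F words in capitals. The Mcm5 stretch lies at chr8:75109259-75109508 on the plus strand and holds overlapping words in opposite orientation. The Mcm6 stretch lies at chr1:128359706-128359955 on the minus strand and holds 3 words. The ends of both windows were not found in GENCODE M21 transcripts of these genes in either orientation. Their starts and strands therefore rest on RefSeq alone.
Mcm5: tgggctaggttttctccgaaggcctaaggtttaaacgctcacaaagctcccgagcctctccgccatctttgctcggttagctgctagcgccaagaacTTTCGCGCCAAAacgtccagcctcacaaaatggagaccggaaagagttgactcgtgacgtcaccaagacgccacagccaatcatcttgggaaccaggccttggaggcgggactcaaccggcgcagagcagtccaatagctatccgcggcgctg
Mcm6: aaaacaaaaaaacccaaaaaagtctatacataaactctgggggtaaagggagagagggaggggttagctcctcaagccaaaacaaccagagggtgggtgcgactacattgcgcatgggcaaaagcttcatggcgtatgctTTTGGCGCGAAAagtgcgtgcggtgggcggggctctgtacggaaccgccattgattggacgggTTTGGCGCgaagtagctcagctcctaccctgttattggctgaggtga

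The short sites of 7 further members let the words be compared. Capitals mark 1 word per gene here, in the orientation of the gene, so TTTCCCGC on the other strand reads as GCGGGAAA. The windows of Mcm7 and Rfc3 each hold another word, GCGGGAAA. It starts 165 bases before the start in Mcm7 and 1 base after it in Rfc3, where the printed site cuts it off.
Mcm7, window chr5:138171834-138172133, minus strand, from 17 bases after the start: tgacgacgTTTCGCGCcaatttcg
Cdc6, window chr11:98907901-98908200, plus strand, from 138 bases before the start: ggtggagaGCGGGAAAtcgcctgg
Cdt1, window chr8:122567765-122568064, plus strand, from 33 bases after the start: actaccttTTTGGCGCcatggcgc
E2f2, window chr4:136172024-136172323, plus strand, from 40 bases after the start: gcatatagTTTGGCGCtaa
Uhrf1, window chr17:56304063-56304362, plus strand, from 185 bases before the start: gagtcgggTTTCGCGCgcccaggc
Pola1, window chrX:93632106-93632405, minus strand, from 138 bases before the start: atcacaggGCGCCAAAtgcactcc
Rfc3, window chr5:151651159-151651458, minus strand, from 10 bases before the start: tcgcacgcTTTCGCGCtcgcggga
The E2f2 word lies in the upstream one of its 2 listed windows, whose end was also not found in GENCODE M21 transcripts of the gene. The CD34 comparison gave similar values with and without a word: the median log2 difference between CD34 groups was 0.15 for the 12 with a word and 0.20 for the 18 without. A match describes the letters of a window and is not evidence of binding.

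The descriptions give the libraries numbers that cross the groups. Replicate 1 of both groups carries number 3 (3a for CD34-positive), replicate 2 of both carries number 2, and number 4 marks CD34-positive replicate 3, CD34-negative replicate 3 and, as 4a, CD34-negative replicate 4. The 3 number-4 libraries stood apart: ribosomal protein genes held 2.36% to 4.29% of their summed FPKM, against 28.2% to 37.8% in the other 4. The microRNA gene Mir703 alone held 34.6% of the sum in CD34-negative replicate 3 and 13.2% in CD34-negative replicate 4, but no more than 0.253% in the other 5. The depth is unknown because the files hold no counts. Cd34 was higher in every CD34-positive library (147 to 256 FPKM) than in every CD34-negative one (2.67 to 91.8 FPKM). The progenitor receptor Kit was present in all libraries (44.7 to 522 FPKM), and all 7 B and T cell, all 5 hepatocyte and all 6 stromal or endothelial markers checked stayed under 1 FPKM in every library. Mast cell markers summed to 1655 to 11011 FPKM in CD34-negative and 2130 to 3206 FPKM in CD34-positive libraries. Erythroid and neutrophil sums are given beside the results they accompany.

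No replication gene differed between CD34-positive and CD34-negative cells past the threshold. In limma on log2(FPKM + 1), with Benjamini-Hochberg adjustment over all 9259 genes, 0 of 35 members had an adjusted p under 0.05, and 0.00% of all tested genes did. Cd34, the sorting marker, was not called either, with a difference of 3.60 (SE 0.98; unadjusted p = 0.00548, adjusted p = 0.647 in limma). The lack of calls is thus not particular to the replication genes. No member had an unadjusted p under 0.05 either, where 5.65% of tested genes did (3.38% higher and 2.27% lower in CD34-positive cells), and no member had groups that did not overlap, where 2.67% of tested genes were higher and 3.01% lower without overlap. The fitted difference was above 0 for 30 of the 35 members and for 62.1% of all tested genes. Its median was 0.18 over the members and 0.09 over all genes. The split of 30 above and 5 below 0 was 26 and 9 with median-ratio scaling, 24 and 11 with quantile normalization, and 23 and 12 with an equal sum of genes other than ribosomal protein and small RNA genes. The median of all genes was -0.006, -0.009 and -0.03 under these scalings. The members' median exceeded it by 0.09, 0.11 and 0.09, against 0.10 in the reported values. Because 2 of 4 negative but 1 of 3 positive libraries carry number 4, that sign also follows the library numbers. With the number as a block, 23 members lay above 0 (54.9% of tested genes) and the median was 0.06, against 0.04 over all genes. That fit called no gene (0.00%), and unadjusted p under 0.05 was reached by 1 member above 0 and 1 below, Tyms and E2f2, where 12.8% and 9.14% of tested genes did. In numbers 2 and 3 alone, 18 members lay above 0 and 17 below. A block by the replicate number of the titles in place of the descriptions called no gene either, with 25 members above 0. In that fit 4 members had an unadjusted p under 0.05, with Rrm1, Tyms and Pole above 0 and E2f2 below, where 21.0% of tested genes did (11.8% higher and 9.25% lower). In bulk RNA a smaller share of cells in S phase and less RNA of these genes per cell cannot be told apart.

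Within libraries of equal number, the differences were small and their signs mixed. The median over the 35 members was -0.03 in number 2, 0.04 in number 3 and 0.02 in number 4, on the log2 scale. Higher in CD34-positive cells were 17 members in number 2 (58.9% of tested genes), 23 in number 3 (50.8%) and 18 in number 4 (48.4%). The median size regardless of sign was 0.25, 0.14 and 0.16, against 0.37, 0.17 and 0.24 over all tested genes. A difference past 1 was seen for 2 members in number 2, E2f2 and Ccne1, and for none in numbers 3 and 4, where 10.8%, 1.29% and 7.64% of tested genes passed 1. In number 4 the outcome turned on which negative library was used. Against CD34-negative replicate 3, 28 of 35 members were higher in CD34-positive cells (49.6% of tested genes), and against CD34-negative replicate 4 only 9 were (48.5% of tested genes). Those negative libraries carry the same cell label. With small RNA and ribosomal protein genes left out of an equal library sum, the counts were 34 (60.5% of tested genes) and 7 (41.8%). Their own gap for these genes, a median of 0.21 on one side of CD34-positive replicate 3 and -0.14 on the other, was thus larger than the number-4 median of 0.02. Of all members, 8 were higher in CD34-positive cells within all 3 numbers (Mcm4, Cdc45, Rrm1, Tyms, Uhrf1, Pole, Chaf1b and Prim1), where 29.0% of tested genes were. Lower in all 3 were 6 (Mcm2, Ccne1, Cdc6, Cdt1, Tk1 and E2f2), where 25.0% of tested genes were. These shares do not exceed the background.

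**Figure D1:**
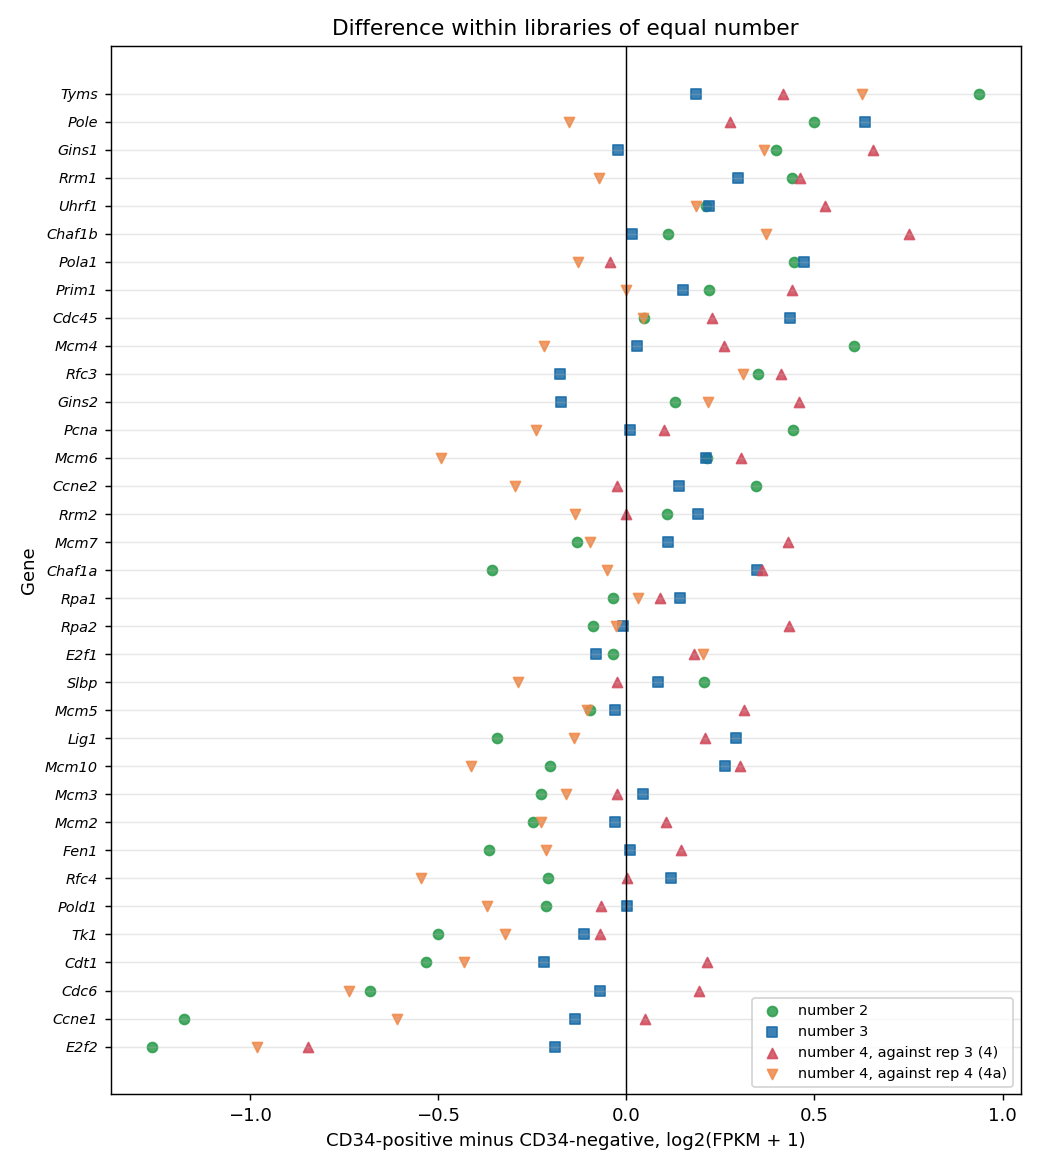
CD34-positive minus CD34-negative difference in log2(FPKM + 1) for each of the 35 genes within number 2, number 3 and number 4, the last drawn against each of its 2 CD34-negative libraries; each point is 1 library against 1 library, so there is no error bar. Tyms, Uhrf1, Chaf1b and Cdc45 lie above 0 and E2f2 and Tk1 below 0 in every pair, while the other genes lie on both sides.

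Among the regulators, E2f2 had the smallest p of the 35. E2f2 encodes an activator E2F that is prominent in erythroid precursors. Within number 3 it stood at 12.1 FPKM in CD34-negative and 10.5 FPKM in CD34-positive cells. Within number 2 it stood at 35.3 and 14.2 FPKM. Within number 4 the negative libraries held 12.8 and 14.1 FPKM and the positive one 6.67 FPKM. So the positive library was the lower one in each number, but the group ranges overlapped, since CD34-positive replicate 2 lay above CD34-negative replicates 1, 3 and 4. E2f2 had a CD34-positive mean of 10.4 ± 3.75 FPKM (SD, n = 3) and a CD34-negative mean of 18.6 ± 11.2 FPKM (SD, n = 4). The log2 difference was -0.69 (SE 0.44; unadjusted p = 0.151 and adjusted p = 0.9999 in limma). With the number as a block it was -0.80 (SE 0.21; unadjusted p = 0.00720, adjusted p = 0.106 in limma), and 22.0% of all tested genes had an unadjusted p under 0.05 in that fit. Erythroid markers moved the same way: of 12 listed, 11 were measured and 0 of them had the higher mean in CD34-positive cells. Their summed level was 174 to 805 FPKM in CD34-negative and 73.0 to 124 FPKM in CD34-positive libraries, with Car2 under 1 FPKM throughout. By library, CD34-negative replicate 2 held the most E2f2 and the highest erythroid sum (805 FPKM). CD34-negative replicates 4, 1 and 3 had sums of 712, 325 and 174 FPKM, with E2f2 at 14.1, 12.1 and 12.8 FPKM. CD34-positive replicates 1, 2 and 3 had sums of 124, 111 and 73.0 FPKM, with E2f2 at 10.5, 14.2 and 6.67 FPKM. So E2f2 did not follow the erythroid sum library by library. The part of erythroid cells in the E2f2 difference was not tested.

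E2f1, the activator that opens the G1/S programme, did not share that pattern. It stood at 26.1 and 24.6 FPKM in number 3, 37.1 and 36.2 FPKM in number 2, and 13.6, 13.3 and 15.5 FPKM in number 4 (CD34-negative values first here and below). E2f1 thus differed by at most 0.20 on the log2 scale within any pair. The ratio of E2f1 to E2f2 was 2.16 to 2.55 in CD34-negative replicate 1 and the 3 CD34-positive libraries, and 0.94 to 1.06 in the other CD34-negative ones.

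Cyclin E is made from a pair of genes, Ccne1 and Ccne2, which bind the same kinase. Ccne1 stood at 17.9 and 16.2 FPKM in number 3, at 66.0 and 28.7 FPKM in number 2, and at 12.9, 20.9 and 13.4 FPKM in number 4. The value of CD34-negative replicate 2 was more than 3 times that of any other CD34-negative library. Ccne2 ran the other way across numbers, at 6.28 to 8.26 FPKM in numbers 2 and 3 and 13.3 to 16.5 FPKM in number 4. The ratio of Ccne1 to Ccne2, which no scaling of whole libraries alters, was 2.18 to 10.5 in numbers 2 and 3 and 0.95 to 1.26 in number 4. Neither gene separated the CD34 groups.

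Of the origin-licensing genes, Cdc6 and Cdt1 had lower values in the CD34-positive library in each number when number 4 used the mean of its negative libraries. Cdc6, the ATPase that helps load the helicase, stood at 14.8 and 14.1 FPKM in number 3, 42.6 and 26.2 FPKM in number 2, and 6.91, 14.0 and 8.04 FPKM in number 4. Cdt1, which delivers the helicase and is destroyed once S phase starts, stood at 63.2 and 54.2, then 91.1 and 62.8, then 19.2, 30.6 and 22.5 FPKM. For both genes CD34-negative replicate 3 lay below the CD34-positive library of its number, so the sign rests on the other negative libraries. Cdc6 and Cdt1 were highest in CD34-negative replicate 2, as were E2f2, Ccne1 and Tk1. The same held for E2f1, Mcm2, Mcm3, Mcm5, Mcm7, Mcm10, Fen1, Pold1, Chaf1a, Rpa2, Rfc4 and Lig1, so it was not limited to those genes. The share of all tested genes highest in that library was not counted.

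The 6 subunits of the MCM2-7 helicase form a ring with 1 copy of each. Their FPKM are set side by side here, but differences between numbers also followed transcript length, as given below. Mcm7 has the shortest transcript of the 6 (2962 bases) and Mcm6 the longest (4355 bases). The part of length in the order of subunits was not tested. In number 3 the highest and lowest subunits were closest by ratio (1.85 and 1.95), from 96.3 FPKM (Mcm4) to 178 FPKM (Mcm2) in CD34-negative and from 98.2 FPKM (Mcm4) to 191 FPKM (Mcm7) in CD34-positive cells. In number 2, Mcm7 was highest at 289 and 264 FPKM and Mcm4 lowest at 36.4 and 55.9 FPKM, a ratio of 7.95 in CD34-negative and 4.72 in CD34-positive cells. In number 4 the order turned over. Mcm7 was lowest there, at 24.4, 35.5 and 33.2 FPKM, and Mcm3 (85.8 FPKM) or Mcm6 (138 and 98.2 FPKM) was highest. The lowest subunit was the same in every library of a number, while the highest could differ within numbers 3 and 4. Between CD34 groups, Mcm2 had a mean of 137 ± 62.1 FPKM (SD, n = 3) in the positive libraries against 129 ± 71.6 FPKM (SD, n = 4) in the negative ones, and the other 5 subunits also differed by less than their SD.

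**Figure D2:**
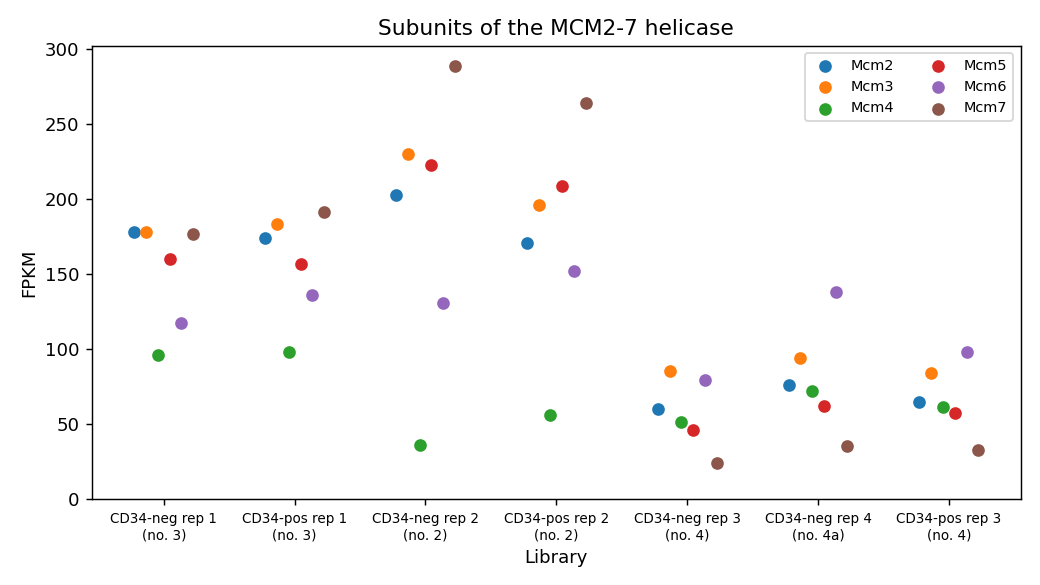
FPKM of the 6 MCM2-7 subunits in each of the 7 libraries, 1 point per subunit and library, with libraries of equal number side by side. Mcm7 is the highest subunit in both number-2 libraries and the lowest in all 3 number-4 libraries, whichever CD34 state they hold.

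The helicase activators showed a similar lack of separation by CD34. Cdc45, which joins MCM and GINS in the active helicase, stood at 25.6 and 34.99 FPKM in number 3, 42.9 and 44.4 FPKM in number 2, and 17.0, 19.5 and 20.1 FPKM in number 4. It was thus higher in CD34-positive cells in each pair, by 0.04 to 0.43 on the log2 scale, and the difference over all libraries was 0.34 (SE 0.42; unadjusted p = 0.432 in limma). Gins1, a GINS subunit, stood at 26.0 and 25.6, 23.1 and 30.8, and 10.5, 13.1 and 17.2 FPKM, a difference of 0.46 (SE 0.40; unadjusted p = 0.274 in limma). Its partner Gins2 exceeded it in all 7 libraries, by 1.61 to 2.59 times in numbers 2 and 3 and 1.07 to 1.25 times in number 4. Mcm10, which helps activate the helicase, ranged from 15.1 to 41.6 FPKM in CD34-negative and from 18.9 to 36.1 FPKM in CD34-positive libraries, so the groups overlapped widely.

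At the fork, Pcna, the sliding clamp that tethers polymerases, was the most abundant member in numbers 2 and 3. It stood at 480 and 483 FPKM in number 3, 374 and 509 FPKM in number 2, and only 63.8, 81.0 and 68.5 FPKM in number 4. Mean Pcna was 6.50 times higher in numbers 2 and 3 than in number 4, while CD34-positive and CD34-negative libraries of the same number lay within 0.44 of each other on the log2 scale. Fen1, the flap nuclease of the lagging strand, and Lig1, the ligase that seals it, ranged from 34.0 to 172 FPKM and from 23.6 to 68.0 FPKM in CD34-negative libraries, and from 37.8 to 134 FPKM and from 27.5 to 55.7 FPKM in CD34-positive ones. Subunits Rpa1 and Rpa2 of the single-strand binding protein and Rfc3 and Rfc4 of the clamp loader also overlapped between groups. Rfc3 had a difference of 0.37 (SE 0.45; unadjusted p = 0.427 in limma), with the CD34-positive library lower in number 3 and higher in numbers 2 and 4.

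Of the polymerase genes, Pold1 alone was lower in every number-4 library, and Pole, Pola1 and Prim1 overlapped between numbers. Pold1, the catalytic subunit of the lagging-strand polymerase, stood at 57.1 to 75.4 FPKM in numbers 2 and 3 and 17.7 to 23.1 FPKM in number 4. Pole, its counterpart on the leading strand, was among the least abundant members, at 8.03 and 13.0 FPKM in number 3, 6.25 and 9.23 FPKM in number 2, and 8.09, 11.2 and 10.00 FPKM in number 4. Pole was higher in CD34-positive cells in numbers 3 and 2 and lay between the negative libraries of number 4, a difference of 0.33 (SE 0.29; unadjusted p = 0.276 in limma). The ratio of Pold1 to Pole was 4.39 to 12.1 in numbers 2 and 3 and 1.77 to 2.30 in number 4. Pola1 and Prim1, of the polymerase that lays down primers, had CD34-positive means of 17.6 ± 3.03 and 34.7 ± 8.30 FPKM (SD, n = 3) and CD34-negative means of 16.1 ± 5.04 and 29.0 ± 6.76 FPKM (SD, n = 4), with overlapping ranges.

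For nucleotide supply, thymidylate synthase Tyms, which makes dTMP from dUMP, had the second smallest p of the 35. It stood at 45.8 and 52.3 FPKM in number 3, 37.5 and 72.7 FPKM in number 2, and 17.4, 14.9 and 23.5 FPKM in number 4. The positive library was the higher one in every pair, though CD34-positive replicate 3 lay below CD34-negative replicates 1 and 2. The difference was 0.77 (SE 0.53; unadjusted p = 0.184, adjusted p = 0.9999 in limma), and with the number as a block 0.55 (SE 0.17; unadjusted p = 0.0163, adjusted p = 0.141 in limma). Neutrophil and monocyte markers also stood higher in CD34-positive cells, for 6 of 7 genes by mean, with sums of 124 to 1310 FPKM in CD34-negative and 1241 to 2390 FPKM in CD34-positive libraries, and Elane and Csf1r under 1 FPKM throughout. Their part in the Tyms difference was not tested.

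Thymidine kinase Tk1, which salvages thymidine for the same product, went the other way. It stood at 40.5 and 37.4 FPKM in number 3, 118 and 83.4 FPKM in number 2, and 14.6, 17.5 and 13.8 FPKM in number 4. In number 2 the ratio of Tk1 to Tyms was 3.16 in CD34-negative and 1.15 in CD34-positive cells, and in the other libraries it was 0.59 to 1.18. Ribonucleotide reductase, which makes deoxynucleotides, kept its subunits close to even: the ratio of Rrm1 to Rrm2 was 0.84 to 1.18 in all 7 libraries. Rrm1 stood at 79.7 and 98.2 FPKM in number 3, 84.1 and 115 FPKM in number 2, and 61.5, 89.5 and 85.1 FPKM in number 4, a difference of 0.33 (SE 0.34; unadjusted p = 0.359 in limma).

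Of the chromatin genes, Uhrf1, which carries DNA methylation through replication, stood at 126 and 147 FPKM in number 3, 131 and 152 FPKM in number 2, and 28.01, 35.8 and 40.9 FPKM in number 4. Uhrf1 was higher in CD34-positive cells in every pair, by 0.18 to 0.53 on the log2 scale, and its gap between numbers was larger than any of these. Chaf1b, a subunit of the factor that places histones behind the fork, stood at 41.4 and 41.9, 49.4 and 53.4, and 18.6, 24.5 and 31.9 FPKM, a difference of 0.40 (SE 0.41; unadjusted p = 0.355 in limma). Its partner Chaf1a was within 0.76 to 1.21 times its level in every library. Slbp, which binds replication histone mRNA, varied least across numbers of the 4, from 39.7 to 69.7 FPKM.

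**Figure D3:**
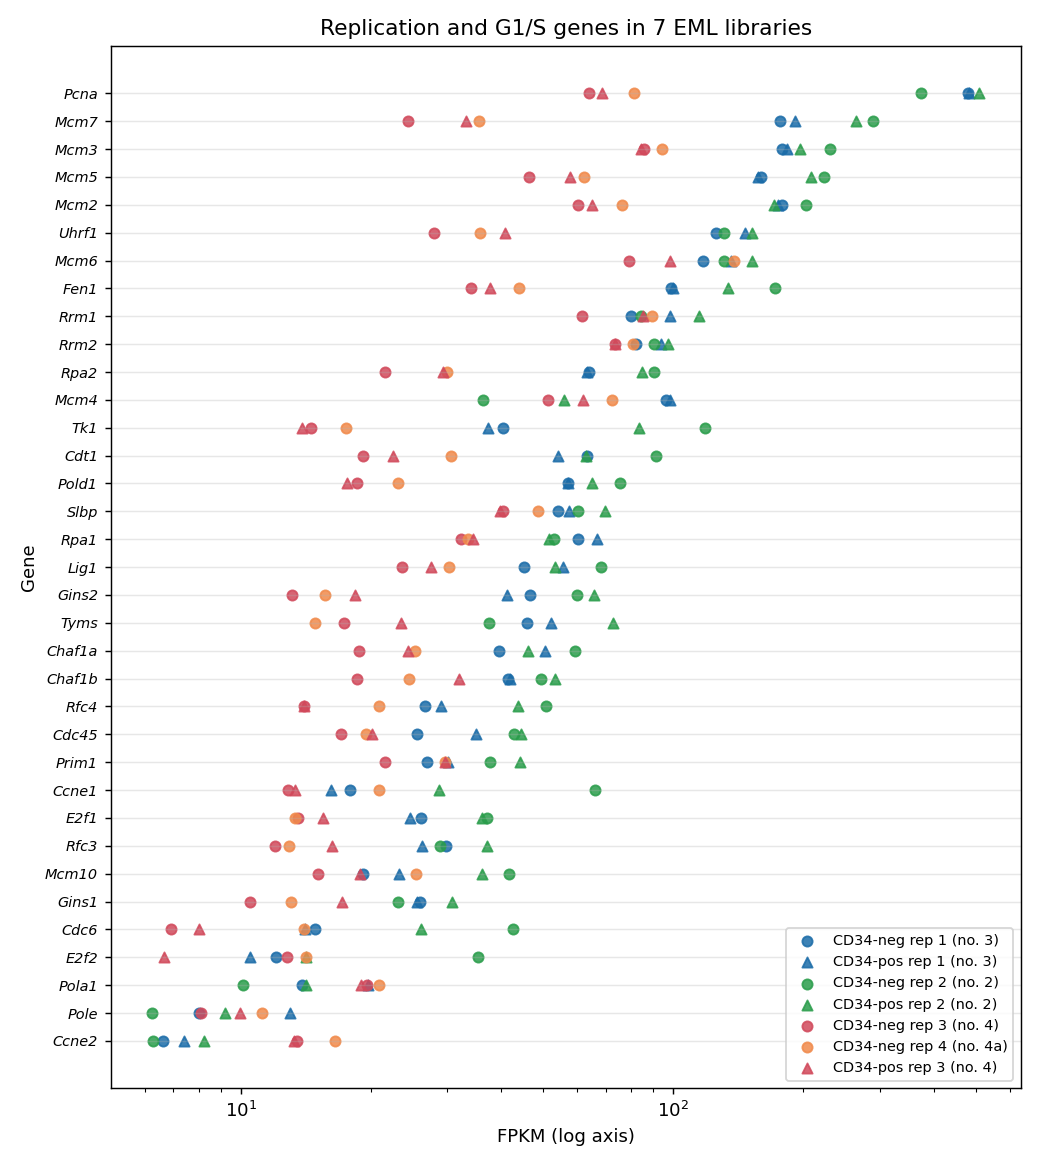
FPKM (log axis) of the 35 genes, 1 row per gene, in 4 CD34-negative libraries (circles) and 3 CD34-positive libraries (triangles), coloured by library number. Red and orange number-4 points lie left of all blue and green points for 25 genes, while circles and triangles overlap in every row.

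The widest contrast in these genes ran between library numbers. This split was chosen after the data were seen, and it is described without a test. In 25 of 35 members every number-4 library was below every number-2 and number-3 library, and 35.4% of all tested genes behaved so. Ccne2 alone was above in every number-4 library (10.6% of tested genes). The median difference, number 4 minus numbers 2 and 3, was -1.06 on the log2 scale over the members and -0.30 over all genes. Mcm7 differed most, at 31.0 FPKM on average in number 4 and 230 FPKM in numbers 2 and 3, a ratio of 7.42. Tk1 (ratio 4.56), Uhrf1 (3.98), Gins2 (3.38) and Mcm5 (3.37) followed Pcna. By contrast Rrm1, Mcm6 and Mcm4 had ratios of 1.16 to 1.27, and their libraries overlapped. The 39 other replication genes named below lay nearer to all genes. Of these, 16 (41.0%) were lower in every number-4 library, and their median difference was -0.33. Of 23 G1/S control genes 4 (17.4%) were lower and 5 (21.7%) higher. Scaling moved the count of members. With median-ratio scaling, where the median of all genes was 0.01, 19 members were lower (22.3% of tested genes). With quantile normalization 15 were (21.5%) and 5 lay above (Mcm6, Ccne2, Rrm1, Rrm2 and Pola1), where 22.5% of tested genes did, and with an equal sum of genes other than ribosomal protein genes 13 were (15.4%). That sum still holds Mir703, so small RNA genes were left out of it as well. Then 10 members were lower (10.1% of tested genes) and 4 higher (Ccne2, Rrm2, Slbp and Pola1, where 39.9% of tested genes were), and the median was -0.20 over the members and 0.47 over all genes. Rrm2 was thus lower in the reported values and higher under 2 scalings, and Slbp under 1. Lower under the reported values and all 5 other filters or scalings were 9: Mcm5, Mcm7, Pcna, Gins2, Tk1, Uhrf1, Fen1, Pold1 and Rpa2.

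The gap between numbers also followed transcript length, taken as the longest coding transcript of each gene in GENCODE M21. In 5 equal classes of 8726 tested genes with a length, from shortest to longest, the median difference was -1.01, -0.59, -0.34, -0.07 and 0.37. The members in these classes, 6, 8, 11, 6 and 4 genes, had medians of -1.11, -0.90, -1.42, -0.54 and -0.32, each below that of its class. In the middle class, of 2648 to 3610 bases, 9 of 11 members were lower in number 4, against 35.9% of the class. Spearman's rho between length and the difference was 0.52 across all these genes and 0.27 across the 35 members, which share the same 7 libraries. Number 2 minus number 3 ran the other way with length, with class medians of 0.31, 0.03, -0.12, -0.34 and -0.71 from shortest to longest. Spearman's rho was then -0.48 across all these genes and -0.24 across the members. Ratios between members of unlike length can carry these trends. The part of length in either gap was not tested. The members' median FPKM exceeded 67.9% to 76.9% of tested genes in number 4 and 80.1% to 84.0% in numbers 2 and 3.

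**Figure D4:**
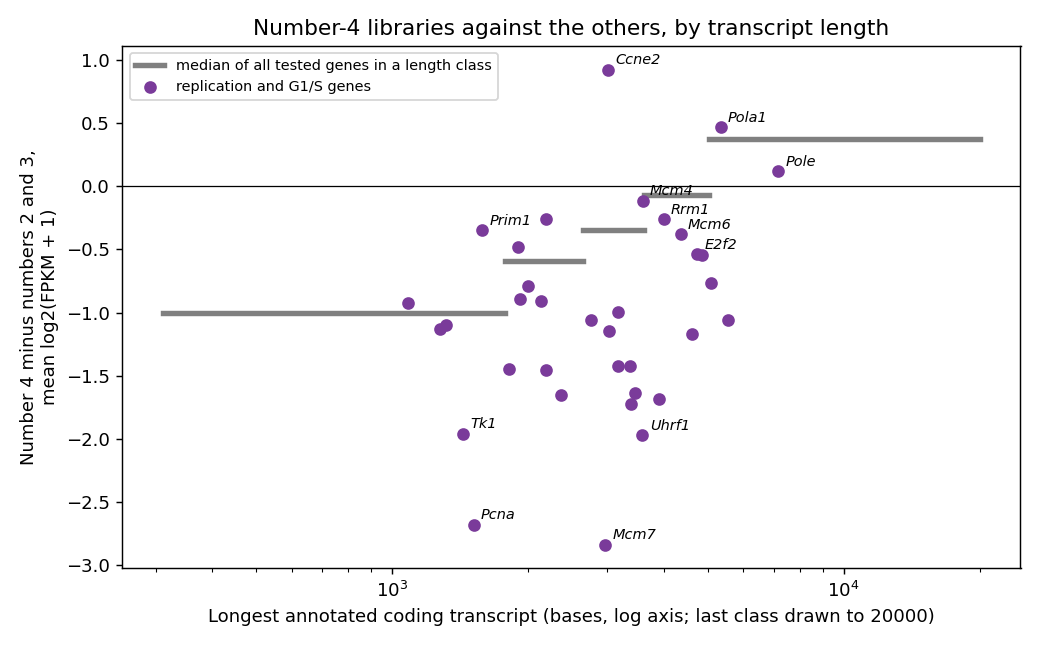
Mean log2(FPKM + 1) of the 3 number-4 libraries minus that of the 4 other libraries against transcript length in bases (log axis), with purple points for the 35 genes and grey bars for the median of all tested genes in 5 length classes. Grey bars run from -1.01 in the shortest to 0.37 in the longest class, and Mcm7 and Pcna lie far below theirs.

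In the rest of the pathway no gene passed between CD34 groups. Of 39 other replication genes tested, 0 had an adjusted p under 0.05 in limma, and the median difference was 0.14. An unadjusted p under 0.05 was reached by 1 on each side of 0 (Dscc1 above, Orc5 below), where 3.38% and 2.27% of tested genes did. The groups did not overlap for 2 higher genes (Pole2 and Nasp) and 1 lower (Orc5), against 2.67% and 3.01% of tested genes. Orc5, a subunit of the origin recognition complex, stood at 18.4, 25.9, 18.1 and 34.99 FPKM in CD34-negative replicates 1 to 4 and at 11.2, 13.3 and 10.6 FPKM in CD34-positive replicates 1 to 3, so the groups did not overlap. Its difference was -0.95 (SE 0.32; unadjusted p = 0.0163, adjusted p = 0.686 in limma). Dscc1, part of a clamp loader that links replication to cohesion, stood at 12.2, 10.2, 7.75 and 7.64 FPKM against 16.4, 20.7 and 11.8 FPKM, a difference of 0.72 (SE 0.31; unadjusted p = 0.0452, adjusted p = 0.866 in limma). Here CD34-positive replicate 3 lay just below CD34-negative replicate 1.

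Of 23 tested G1/S control genes, none passed in limma. E2f8 (lower) and Ccnd1 (higher) had unadjusted p under 0.05, where 2.27% of tested genes were lower and 3.38% higher. The groups did not overlap for 3 higher genes and 1 lower, against 2.67% and 3.01% of tested genes. E2f8, a repressor E2F, stood at 28.01, 27.9, 36.8 and 53.6 FPKM in CD34-negative replicates 1 to 4 and at 20.3, 14.2 and 19.3 FPKM in CD34-positive replicates 1 to 3, a difference of -0.96 (SE 0.34; unadjusted p = 0.0201, adjusted p = 0.698 in limma), without overlap. Ccnd1, a D cyclin that acts before cyclin E, had means of 21.5 ± 9.68 FPKM (SD, n = 3) with CD34 and 9.31 ± 4.35 FPKM (SD, n = 4) without it, a difference of 1.16 (SE 0.45; unadjusted p = 0.0303, adjusted p = 0.764 in limma), and its groups were apart by little, at 14.46 FPKM in CD34-negative replicate 1 and 14.50 FPKM in CD34-positive replicate 3. E2f2 and E2f8 thus both had lower means in CD34-positive cells, and neither passed.

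Of 17 nucleotide supply genes none passed, with a median of 0.20, and 12 (70.6%) were lower in every number-4 library. Among 25 mitosis genes none passed either, and the median was 0.16, or 0.25 with the number as a block. In that block fit 8 mitosis genes had an unadjusted p under 0.05 in limma, 7 higher and 1 lower in CD34-positive cells. So did 8 of the 23 G1/S control genes, 4 higher and 4 lower. Of all tested genes 22.0% did, 12.8% higher and 9.14% lower, and none passed after adjustment. Cdk1, the kinase of mitotic entry, stood at 27.0 and 37.2 FPKM in number 3, 49.6 and 64.7 FPKM in number 2, and 22.4, 20.6 and 27.0 FPKM in number 4, higher in CD34-positive cells in each. Of the mitosis genes, 6 (24.0%) were lower in every number-4 library and 8 of the 25 higher, against 35.4% and 10.6% of all tested genes. Whether the mitosis and replication genes differ from each other in that share was not tested.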

How the data were processed

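RNA was sequenced from 7 libraries of EML cells, 4 CD34-negative and 3 CD34-positive, grouped by their titles. The deposited values are FPKM, 1 column per library, which the authors made with TopHat2, TopHat and Cuffdiff per the submitters' processing notes. Those notes name the builds mm9 and mm10 without saying which library each belongs to. No source used here gives their versions, the annotation or the strand setting, so overlapping genes cannot be separated. The table held 20464 rows; 322 rows of 105 repeated symbols, none a member, were left out. FPKM hold no counts, so depth is unknown and no count model was run. Low values of both replicate 1 libraries shared 1 ratio (0.57) in 24.5% of 793 genes, against 4.66% of 859 for replicate 2, which does not give whole reads.

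The 9259 genes that reached 1 FPKM in 3 or more libraries were compared as log2(FPKM + 1), which understates changes of low genes. Differences are CD34-positive minus CD34-negative, with limma 3.58.1 in R 4.3.3 (mean-variance trend, two-sided, moderated SE, Benjamini-Hochberg over all tested genes, threshold 0.05). The fit was run on simulated data, where recovery of changed genes was required only at a spread smaller than that of these libraries. That run therefore does not show how large a change the fit can find here. Members and lists were chosen with earlier results of these data known. All 35 members are named; log2 differences with p are given for the 8 with the smallest p, and up to 4 genes of each other list may be named by the same rank. The numbers in the descriptions were taken to pair libraries, since deviations from group means of equally numbered libraries correlated at 0.70 to 0.92, although number 4 also marks the libraries that stand apart. Alternatives were another pseudocount, filters, scalings (1, added after seeing the data, leaves 612 small RNA symbols such as Mir and Snor genes out of the library sum), a block by number, and leaving out each library. Transcript lengths came from GENCODE M21 and promoter windows from RefSeq (GRCm38.p6).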

Additional observations from a re-analysis of the deposited data

Results flagged for a closer look

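In the CD34-negative group of 4, E2f2 had 1 library far from the others on the log2 scale. CD34-negative replicate 2, at 35.3 FPKM, lay apart from the other 3 (12.1 to 14.1 FPKM), with a gap of 0.857 of the group's range, above Dixon's critical value for 4 samples. It was 1 of 35 members so marked, and 5.95% of all tested genes were, close to the 1 in 20 that chance gives. The cause was not tested.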

How the results depend on the processing

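No member passed in limma in any of the 26 other settings, and the 8 members given with p kept their sign in all 26. These settings are not all separate checks. With the block by number, leaving out replicate 1 of either group gave the same log2 differences, and so did replicate 2 of either group. The block by title number gave those of the block by number without CD34-negative replicate 4. Unadjusted p under 0.05 in limma was reached by up to 5 members in fits with the replicate block. The 5 were seen without CD34-negative replicate 3, where 28.3% of all tested genes reached it. With an equal sum without ribosomal protein and small RNA genes, E2f2 and Tyms reached it, and 5.69% of tested genes did. That scaling was added after seeing the data. Over all genes, 0 passed in either direction, but 2 were higher without a filter on low values. Leaving out 1 library, with or without the replicate block, gave 0 to 231 higher and 0 to 125 lower genes. Without CD34-negative replicate 1 it was 7 and 3, and with the replicate block 231 and 81 without CD34-negative replicate 1, 230 and 81 without CD34-positive replicate 1, 32 and 125 with CD34-negative replicate 3 left out, and 1 and 0 when CD34-positive replicate 3 was. The members' median of 0.18 was 0.26 with an equal sum without ribosomal protein genes, 0.056 with small RNA genes also left out, 0.081 with median-ratio scaling, 0.10 with quantile normalization, 0.044 with CD34-negative replicates 3 and 4 as 1 sample, 0.031 in numbers 2 and 3 only, 0.060 with the replicate block by description number and 0.12 with the block by title number. Leaving out 1 library gave 0.0021 to 0.49, the lowest without CD34-negative replicate 3 and the highest without CD34-positive replicate 3. With the replicate block it was 0.0021 without CD34-negative replicate 3, 0.031 without CD34-positive replicate 3, 0.039 without replicate 1 of either group, 0.075 without replicate 2 of either group and 0.12 without CD34-negative replicate 4. The 8 members higher within all 3 numbers were 15 with an equal sum without ribosomal protein genes and 4 with CD34-negative replicate 4 alone in number 4. The 6 lower ones were 1 with that scaling and 2 with CD34-negative replicate 3 alone. Under that scaling CD34-positive replicate 3 exceeded CD34-negative replicate 3 in 89.5% of all tested genes, and CD34-negative replicate 4 in 53.5%. Those shares were 49.6% and 48.5% in the reported values. Shares of all tested genes for the counts over all 3 numbers are not given for these settings. The 25 members lower in every number-4 library were 15 with quantile normalization 13 with an equal sum without ribosomal protein genes and 10 with small RNA genes also left out, and 25 to 28 without any 1 library; these were chosen after seeing the data. The cause of these shifts was not tested.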
